A study of Homo sapiens with 8 samples.

Results

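Mitotic genes were followed here: 50 genes of the mitotic spindle, the kinetochore and the G2/M transition. They were chosen by name for their roles from the 23368 genes of the deposited table, with earlier results of these data known. All 50 were in the table and all passed the filter on low values (a mean of at least 10 normalised counts over the 8 libraries), as did 13010 genes in all. Their means ran from 496 to 14071 normalised counts and the lowest value in any library was 214, so none was near the limit of detection. The data come from H2030-BrM, a brain-metastatic derivative of the human lung adenocarcinoma line H2030, made to express the ribosomal protein Rpl10a fused to EGFP. Translating ribosome affinity purification (TRAP) pulls down the tagged ribosomes of these cells with antibodies against EGFP, and the mRNA bound to them was sequenced, so a value stands for ribosome-bound mRNA. The study compared 4 groups of 2 libraries each, all of them carrying the EGFP-Rpl10a construct. The cells carried either an shRNA against luciferase, called control here, or an shRNA against L1CAM, a cell adhesion molecule. Each kind was collected from a petri dish (0 h, RPMI 1640 medium with 10% serum) or after 48 h on a living slice of mouse brain (DMEM with HBSS and 5% serum). The slice and dish groups therefore differ in substrate, medium, serum and time at once, and these cannot be told apart. The labels call the libraries biological replicates but do not say that they came from separate cultures, and they name 1 shRNA per target and 1 cell line.

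Cells enter mitosis when cyclin B binds the kinase CDK1 and the CDC25 phosphatases switch the pair on. The chromosomes are then condensed, captured through their kinetochores by spindle microtubules, held by the spindle checkpoint until all are attached, and parted once the anaphase-promoting complex destroys securin and cyclin B. Most genes of this machinery are transcribed late in the cycle, under the MuvB complexes with their partners MYBL2 and FOXM1, through promoter elements that include the cell cycle genes homology region (CHR) and the CCAAT box. In a bulk sample, fewer dividing cells and less mitotic mRNA per cell cannot be told apart.

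Promoters of 5 members are shown first, so that these 2 elements can be seen beside the values. Windows from 250 bases before to 50 after a start site were taken from RefSeq (build GRCh38.p14) and searched on both strands. The CHR letters were taken as TTTGAA, which a match on the opposite strand shows in capitals as TTCAAA below. The variant TTCGAA, which reads alike on both strands, counted too. CCAAT was the other motif, and a match to it on the opposite strand appears as ATTGG. Of the 50 members, 44 had a window; AURKA, FOXM1, TTK, UBE2C, BIRC5 and TPX2 had none. The 4 shown first are the members with the smallest p for slice against dish in control cells that had 1 window holding the CHR letters, so that they hold them is not a result. TPX2 and KIF2C ranked among them by p, but TPX2 had no window and that of KIF2C held neither motif. The fifth, CDC25B, was chosen after its values were seen, as the 1 member that rose on the slice. It has 4 windows, and the stretch shown is from window 3, the 1 that holds the CHR letters. Each runs 5′ to 3′ on the gene's own strand from 130 bases before to 20 after the start of its window, with matches in capitals: NDC80 at chr18:2571427-2571576 (plus strand), HMMR at chr5:163460502-163460651 (plus strand), CDC20 at chr1:43358851-43359000 (plus strand), MKI67 at chr10:128126404-128126553 (minus strand) and CDC25B at chr20:3796180-3796329 (plus strand).
NDC80: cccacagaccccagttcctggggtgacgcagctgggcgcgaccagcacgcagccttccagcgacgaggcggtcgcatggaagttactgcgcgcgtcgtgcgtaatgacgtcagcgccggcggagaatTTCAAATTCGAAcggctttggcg
HMMR: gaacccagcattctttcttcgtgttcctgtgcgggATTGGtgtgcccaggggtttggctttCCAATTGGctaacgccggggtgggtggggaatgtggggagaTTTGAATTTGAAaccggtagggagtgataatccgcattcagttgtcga
CDC20: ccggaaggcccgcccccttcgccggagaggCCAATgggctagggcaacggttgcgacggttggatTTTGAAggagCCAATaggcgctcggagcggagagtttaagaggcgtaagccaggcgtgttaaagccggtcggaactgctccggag
MKI67: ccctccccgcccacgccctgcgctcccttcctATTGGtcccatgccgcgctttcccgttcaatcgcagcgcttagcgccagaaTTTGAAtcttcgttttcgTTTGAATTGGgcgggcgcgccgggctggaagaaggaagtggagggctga
CDC25B: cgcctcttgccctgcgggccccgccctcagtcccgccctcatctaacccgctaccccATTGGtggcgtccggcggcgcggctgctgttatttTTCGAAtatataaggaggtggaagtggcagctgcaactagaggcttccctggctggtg

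These stretches of NDC80, HMMR and MKI67 each held the CHR letters at 2 places, and those of CDC20 and CDC25B at 1 place. In MKI67 the last CHR match shares bases with an ATTGG, and in HMMR a CCAAT and an ATTGG overlap. The letters were in 35 of the 44 members with a window (79.5%), against 15.3% of the 9137 tested genes and 19.5% of all 27305 genes with a window. A match that began within 50 bases of a start was in 29 members (65.9%), against 5.06% of the tested genes. CCAAT was in 34 members (77.3%, against 43.4%), and 23 members held it at 2 or more places (52.3%, against 16.3%). Both kinds were in a window of 28 members (63.6%, against 6.4%). KIF2C, which encodes a kinesin that takes microtubules apart, was lower on the slice (below), and its window held neither. The windows of CENPE and MYBL2 also held neither. CENPE was likewise called lower on the slice with each shRNA, and MYBL2 with neither. A match is a run of letters and not a measured binding site, and genes with several start sites had several chances to hold one. The plot of motif positions shows where the matches lay.

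The libraries held between 13486212 and 16734651 recovered reads, and 3 reads corresponded to 2.75 to 3.57 normalised counts. L1CAM itself was at 482 and 440 normalised counts in the control dish libraries and at 126 and 88.3 with the L1CAM shRNA. On the slice it was at 451 and 438 against 74.7 and 65.4, so the shRNA groups did not overlap. The log2 fold change of L1CAM was −2.11 ± 0.21 (SE, adjusted p = 0.00865) in the dish and −2.65 ± 0.21 (SE, adjusted p = 0.00164) on the slice. Of the 8 epithelial markers of the labelled line 6 passed the filter. With each shRNA 1 of these was higher on the slice and 0 were lower. Of all genes 6.8% were higher and 8.03% lower in control cells, and 10.1% and 11.2% in L1CAM-shRNA cells. The largest log2 fold changes of the list were 1.87 in control and 1.49 in L1CAM-shRNA cells. These lie in EGFR or MUC1, whose values are not given here. KRT8 and KRT18 were abundant (3460 to 6002 normalised counts), and EPCAM was at 78.3 to 169. CDH1 was at 21.0 to 33.2, while KRT7 (5.35 to 14.1) and KRT19 (at most 1.00) were near 0. Of the 43 markers of brain cells 15 passed the filter. On the slice 1 of these was higher and 1 lower in control cells, and 2 were higher and 1 lower in L1CAM-shRNA cells. The shares over all genes are those given for the epithelial markers. The summed level of the microglial markers stayed between 0.955 and 9.63 normalised counts in all 8 libraries. The sums of the other lists in the dish and on the slice were 3039.7 to 3409.6 and 3852 to 5855 for neurons, 1836 to 2405 and 1095 to 1535 for astrocytes, 4338 to 5068 and 5393 to 6444 for oligodendrocytes, and 153 to 207 and 166 to 253 for endothelial and mural cells. The part of mouse RNA in the results was not tested.

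Replicate 2 of the L1CAM-shRNA slice group stood apart from the other 7 libraries. Its values were lower the longer the transcript: relative to each gene's mean over the libraries, the median was 0.50 on the log2 scale over the 1248 shortest of the tested genes and −0.65 over the 1248 longest, where the other 7 libraries lay between −0.15 and −0.01 and between 0.05 and 0.16. The members followed the same slope between the 2 libraries of that group. The log2 difference of replicate 2 minus replicate 1 had a median of 0.13 over the 10 shortest members and of −0.82 over the 10 longest, with a range from −1.56 to −0.38. Spearman's rho between this difference and exonic length was −0.77 over the 50 members and −0.62 over 12470 genes with a length; both are descriptions of 1 pair of libraries. KIF14 (exonic length 7277 bases) and MKI67 (12678 bases) were among the members low in replicate 2, and PTTG1 (1151 bases) and AURKB (1316 bases) among those high. Fold changes that involve the L1CAM-shRNA slice group rest on these 2 libraries, and the members' values in each are given below for most of the members named.

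**Figure D1:**
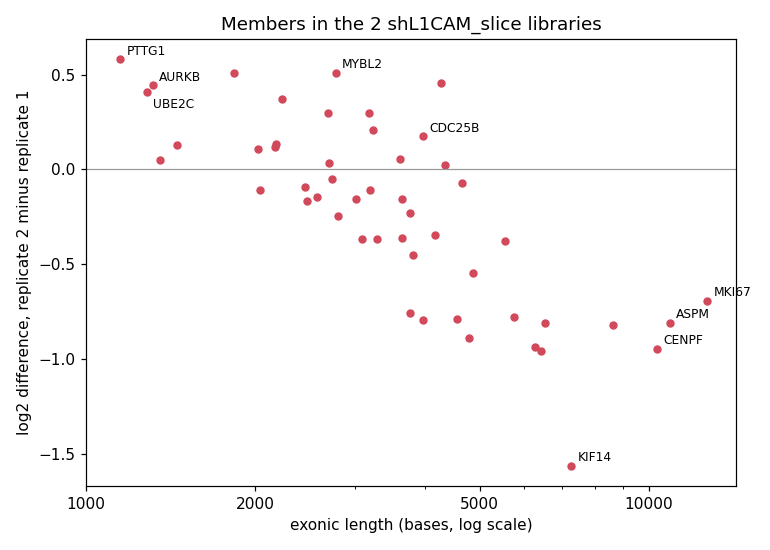
Each point is 1 of the 50 members. The horizontal axis is exonic length in bases on a log scale, and the vertical axis is the log2 difference of replicate 2 minus replicate 1 of the L1CAM-shRNA slice group, which goes from 0.58 for PTTG1 to −1.56 for KIF14.

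On the brain slice most of the mitotic genes were lower than in the dish, with either shRNA. In control cells 43 of the 50 fell, 1 rose (CDC25B) and 6 did not pass the test. Of all tested genes 8.03% fell and 6.8% rose. In L1CAM-shRNA cells 44 fell, 1 rose (again CDC25B) and 5 did not pass, where 11.2% of all genes fell and 10.1% rose. The median log2 fold change of the members was −1.12 in control and −1.17 in L1CAM-shRNA cells, beside medians over all genes of 0.013 and −0.0019. In control cells 32 members fell by more than a factor of 2 (2.78% of all genes), and in L1CAM-shRNA cells 36 did (4.77%). The same 42 members fell in both, as 6.22% of all genes did. The test was limma on log2(normalised count + 1), with Benjamini-Hochberg adjustment over the 13010 genes and a threshold of 0.05.

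Single libraries gave the same order. The 50 members together took 0.943% and 0.936% of all normalised counts in the control dish libraries and 0.453% and 0.44% on the slice. With L1CAM shRNA the shares were 1.10% and 1.12% in the dish and 0.526% and 0.425% on the slice. Both slice libraries lay below both dish libraries for 48 members in control cells and for 46 in L1CAM-shRNA cells, where 37.3% and 28.7% of all genes did so. With 2 libraries a group the calls rest on the spread pooled over 4 groups. Without 1 or the other control dish library 1 and 11 members were called lower in control cells (0.0307% and 0.53% of all genes), and without 1 or the other control slice library 7 and 6 were (0.331% and 0.292%), while the median stayed between −1.12 and −1.08. In L1CAM-shRNA cells 26 and 30 were called lower without 1 or the other L1CAM-shRNA dish library (1.45% and 2.81% of all genes). Fitted on only the 4 libraries compared, 34 were called lower and 0 higher in L1CAM-shRNA cells (2.44% and 1.48%), so CDC25B, CCNB2, AURKA, PLK1, CDCA8 and PTTG1 were among those that no longer passed. The same setting called 48 lower in control cells (25.6%). HMMR was the 1 member called in control cells whichever library was left out.

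**Figure D2:**
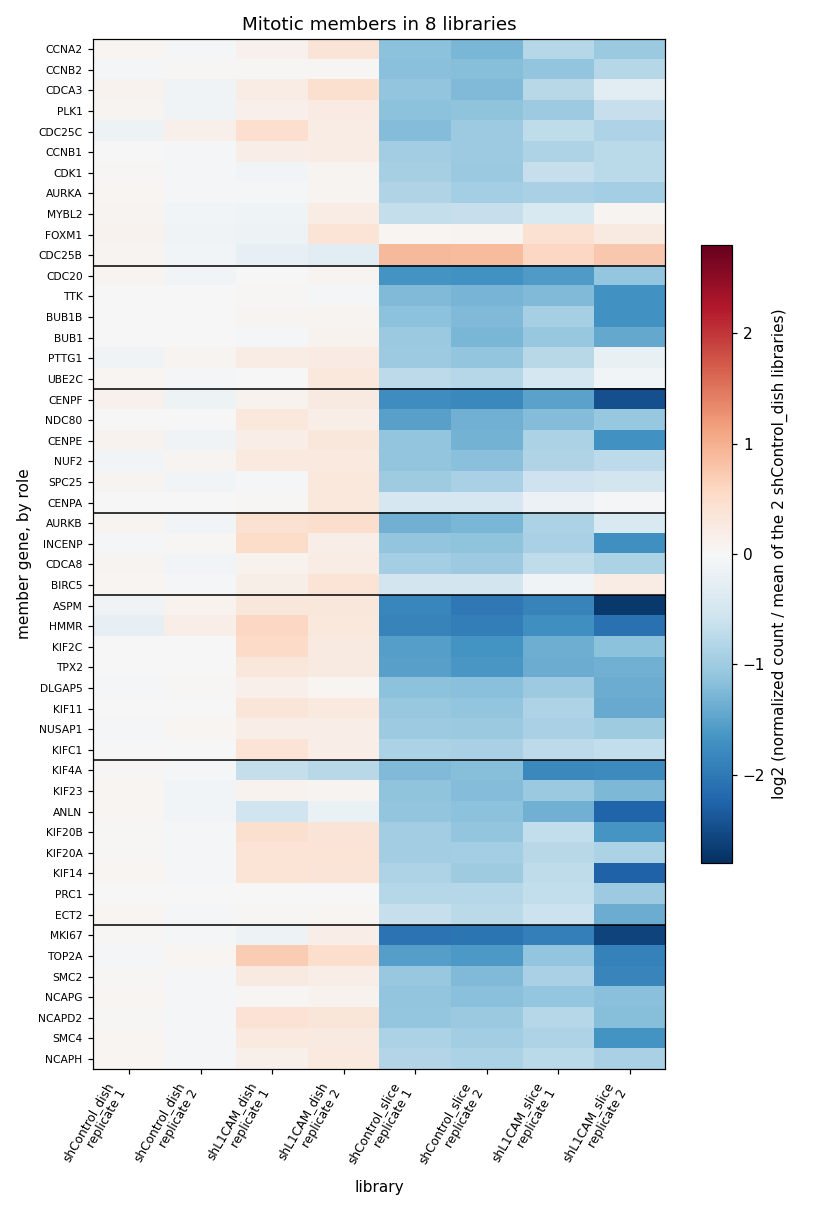
Rows are the 50 members, grouped by role with lines between the groups, and columns are the 8 libraries. Colour gives the log2 of a library's normalised count over the mean of the 2 control dish libraries, blue below and red above; CDC25B is red in all 4 slice columns, FOXM1 stays near white, and the last column is uneven.

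The genes of mitotic entry comprise the cyclins, CDK1, the CDC25 phosphatases, PLK1, AURKA, CDCA3 and the transcription factors FOXM1 and MYBL2. With each shRNA 8 of these 11 fell and 1 rose. Beside this count and that of each role group below, 8.03% of all genes fell and 6.8% rose in control cells. In L1CAM-shRNA cells 11.2% fell and 10.1% rose. CCNB2, a partner of CDK1, was at 2532 and 2659.6 normalised counts in the dish and 1151 and 1138 on the slice and, with L1CAM shRNA, at 2655 and 2650.5 normalised counts in the dish and 1206 and 1485 on the slice. CCNA2, the cyclin of S phase and G2, was at 2967 and 2786 normalised counts in the dish and 1289 and 1185 on the slice, and at 3139 and 3668 normalised counts in the dish and 1659 and 1398 on the slice with L1CAM shRNA. In both genes every slice library was below every dish library. Within 1 shRNA this held for 37.3% of all genes in control and 28.7% in L1CAM-shRNA cells. The same shares stand beside each such statement in the role groups below. The log2 fold change of CCNB2 was −1.18 ± 0.15 (SE, adjusted p = 0.00339) in control cells and −0.99 ± 0.15 (SE, adjusted p = 0.00396) in L1CAM-shRNA cells, and that of CCNA2 was −1.22 ± 0.15 (SE, adjusted p = 0.00366) and −1.16 ± 0.15 (SE, adjusted p = 0.0029). CCNB1, the major mitotic cyclin, stood highest of the 50 per kilobase of exon in the control dish libraries (3390 normalised counts per kilobase), and its log2 fold changes were −0.99 ± 0.13 (SE, adjusted p = 0.0039) and −1.003 ± 0.13 (SE, adjusted p = 0.00269).

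Against this direction went CDC25B, the phosphatase that starts the activation of CDK1 at the centrosome. It was at 1461 and 1320.4 normalised counts in the dish and 2602 and 2581 on the slice in control cells. Cells with L1CAM shRNA had 1182 and 1137 normalised counts in the dish and 2067 and 2334 on the slice. Every slice library lay above every dish library, as in 39.8% of all genes in control and 28% in L1CAM-shRNA cells. Its log2 fold change was 0.90 ± 0.14 (SE, adjusted p = 0.00634) and 0.92 ± 0.14 (SE, adjusted p = 0.00409), while that of CDC25C, the phosphatase of the same family that keeps CDK1 active in mitosis, was −1.10 ± 0.17 (SE, adjusted p = 0.00694) and −1.13 ± 0.17 (SE, adjusted p = 0.00458).

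FOXM1, a transcription factor of late cell cycle genes, was at 1501 and 1301 normalised counts in the dish and 1454 and 1470.1 on the slice, and at 1272 and 1838 normalised counts in the dish and 1873 and 1679 on the slice with L1CAM shRNA. Slice and dish libraries overlapped with each shRNA. The log2 fold change was 0.06 ± 0.19 (SE, adjusted p = 0.848) in control and 0.21 ± 0.19 (SE, adjusted p = 0.438) in L1CAM-shRNA cells. MYBL2, the Myb protein that joins the MuvB core, was at 2407 and 2167 normalised counts in the dish and 1440.1 and 1470.1 on the slice and at 2115 and 2640.4 normalised counts in the dish and 1706 and 2429.6 on the slice. Its slice libraries lay below the dish libraries in control cells but overlapped them in L1CAM-shRNA cells. The difference was −0.65 ± 0.19 (SE, adjusted p = 0.0547) and −0.22 ± 0.19 (SE, adjusted p = 0.446). Leaving out a library turned the sign of FOXM1 with each shRNA (ranges −0.0386 to 0.17 and −0.0515 to 0.48) and of MYBL2 in L1CAM-shRNA cells (−0.47 to 0.0399). For MYBL2 the value was −0.47 without replicate 2 of the L1CAM-shRNA slice group and 0.0399 without replicate 1.

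The spindle checkpoint and exit genes fell in 6 of 6 cases in control cells and in 5 of 6 with L1CAM shRNA. CDC20, the activator of the anaphase-promoting complex that the checkpoint holds back, was at 4973 and 4490.2 normalised counts in the dish and 1492 and 1471 on the slice. In L1CAM-shRNA cells CDC20 was at 4678 and 4999 normalised counts in the dish and 1568 and 2233 on the slice. TTK, the kinase that recruits the checkpoint to unattached kinetochores, was at 1754 and 1807 normalised counts in the dish and 759 and 725 on the slice, and with L1CAM shRNA at 1819 and 1725 normalised counts in the dish and 753 and 551 on the slice. All slice libraries of both genes lay below all dish libraries. Log2 fold changes were −1.67 ± 0.18 (SE, adjusted p = 0.00247) and −1.37 ± 0.18 (SE, adjusted p = 0.00284) for CDC20, and −1.26 ± 0.17 (SE, adjusted p = 0.00437) and −1.46 ± 0.17 (SE, adjusted p = 0.00195) for TTK. UBE2C, the ubiquitin-conjugating enzyme of the anaphase-promoting complex, had the largest p of the group. It was at 3790.4 and 3548 normalised counts in the dish and 2203 and 2112 on the slice in control cells and at 3648 and 4499 normalised counts in the dish and 2611 and 3474 on the slice in L1CAM-shRNA cells. The libraries did not overlap, but the 2 slice libraries with L1CAM shRNA differed. The change was −0.77 ± 0.18 (SE, adjusted p = 0.0235) in control cells. The difference with L1CAM shRNA was −0.43 ± 0.18 (SE, adjusted p = 0.111), which did not pass. It was −0.22 without replicate 1 and −0.63 without replicate 2 of that slice group. With the trend along transcript length removed it was −0.66 and passed (limma, adjusted p = 0.00447). PTTG1 (securin) and UBE2C are the 2 shortest transcripts of the group. PTTG1 fell with each shRNA (−1.06 ± 0.19, adjusted p = 0.011 and −0.71 ± 0.19, adjusted p = 0.0315), and the latter was −0.42 without replicate 1 of the slice group.

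Of the kinetochore and centromere genes 5 of 6 fell with each shRNA. NDC80 and NUF2 pair in the complex that binds the microtubule to the kinetochore. NDC80 was at 2435 and 2417 normalised counts in the dish and 849 and 950.1 on the slice, and at 2998 and 2765 normalised counts in the dish and 1049.7 and 1154 on the slice with L1CAM shRNA. NUF2 was at 890.1 and 979.9 normalised counts in the dish and 433 and 418 on the slice, and at 1126 and 1131 normalised counts in the dish and 525 and 566 on the slice in the L1CAM-shRNA libraries. No slice library of either gene reached the dish level. For NDC80 the log2 fold change was −1.43 ± 0.14 (SE, adjusted p = 0.00223) and −1.39 ± 0.14 (SE, adjusted p = 0.00133), and for NUF2 it was −1.13 ± 0.14 (SE, adjusted p = 0.00345) and −1.05 ± 0.14 (SE, adjusted p = 0.00291). CENPA, the histone H3 variant that marks the centromere, did not pass in either. Its values were 999.7 and 1028 normalised counts in the dish and 732 and 726 on the slice in control cells and 1039.7 and 1236 normalised counts in the dish and 909 and 992 on the slice with L1CAM shRNA. The slice libraries were below the dish libraries with each shRNA, by a small margin in L1CAM-shRNA cells. The difference was −0.48 ± 0.15 (SE, adjusted p = 0.0607) in control cells and −0.26 ± 0.15 (SE, adjusted p = 0.235) in L1CAM-shRNA cells. CENPF, a large protein of the outer kinetochore, fell most in the group in control cells, with −1.76 ± 0.27 (SE, adjusted p = 0.00634) and −2.15 ± 0.27 (SE, adjusted p = 0.00259). Without replicate 1 or 2 of the slice group the latter was −2.63 or −1.68.

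Of the chromosomal passenger complex, whose kinase corrects faulty attachments, 3 of 4 genes fell with each shRNA. AURKB, that kinase, was at 1509 and 1365 normalised counts in the dish and 562 and 589.5 on the slice, and in L1CAM-shRNA cells at 1921 and 2034 normalised counts in the dish and 783 and 1066 on the slice. CDCA8 (borealin), a subunit that targets the complex, was at 1814 and 1627 normalised counts in the dish and 883 and 844 on the slice, and with L1CAM shRNA at 1851 and 1976 normalised counts in the dish and 1048 and 934 on the slice. Slice libraries lay below dish libraries throughout for both. AURKB changed by −1.32 ± 0.17 (SE, adjusted p = 0.00396) and −1.11 ± 0.17 (SE, adjusted p = 0.00455), and CDCA8 by −0.99 ± 0.14 (SE, adjusted p = 0.00532) and −0.95 ± 0.14 (SE, adjusted p = 0.004). BIRC5 (survivin), another subunit, was the exception. It was at 2881 and 2659 normalised counts in the dish and 1945 and 1944 on the slice in control cells and at 3111 and 3602 normalised counts in the dish and 2595 and 3192 on the slice with L1CAM shRNA. In control cells its slice libraries lay below the dish libraries, and in L1CAM-shRNA cells the groups overlapped. The differences were −0.51 ± 0.15 (SE, adjusted p = 0.0574) and −0.22 ± 0.15 (SE, adjusted p = 0.33). The latter was −0.07 without replicate 1 and −0.37 without replicate 2 of the slice group. INCENP, the scaffold of the complex, changed by −1.11 ± 0.24 (SE, adjusted p = 0.0202) and −1.66 ± 0.24 (SE, adjusted p = 0.00388), the latter −2.06 without replicate 1 and −1.26 without replicate 2 of the slice group.

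All 8 genes of spindle assembly and its motors fell with each shRNA. TPX2, which builds microtubules around chromosomes and activates AURKA, had the smallest p of all 50 members in both comparisons. It was at 5671 and 5518 normalised counts in the dish and 1944 and 1805 on the slice in control cells. The L1CAM-shRNA libraries had 6956 and 6623 normalised counts in the dish and 2127 and 2212 on the slice. The slice values lay well below the dish values and close to each other. The log2 fold change was −1.58 ± 0.13 (SE, adjusted p = 0.00158) and −1.65 ± 0.13 (SE, adjusted p = 0.000763). KIF2C was at 2023 and 2059 normalised counts in the dish and 696 and 636 on the slice, and at 2979 and 2435 normalised counts in the dish and 797 and 922 on the slice with L1CAM shRNA. HMMR, a microtubule-binding protein of the spindle poles, was at 2711 and 3634 normalised counts in the dish and 861 and 830.3 on the slice and, with L1CAM shRNA, at 4739.7 and 3909 normalised counts in the dish and 967 and 749.6 on the slice. ASPM, which focuses the poles, was at 1285 and 1484 normalised counts in the dish and 389.6 and 345 on the slice, with 1724 and 1724 normalised counts in the dish and 376 and 214 on the slice in L1CAM-shRNA cells. None of the 3 overlapped between dish and slice. Their log2 fold changes were −1.62 ± 0.16 (SE, adjusted p = 0.00223) and −1.65 ± 0.16 (SE, adjusted p = 0.00133) for KIF2C, −1.89 ± 0.19 (SE, adjusted p = 0.0024) and −2.34 ± 0.19 (SE, adjusted p = 0.000976) for HMMR, and −1.91 ± 0.24 (SE, adjusted p = 0.00381) and −2.60 ± 0.24 (SE, adjusted p = 0.00133) for ASPM. Replicate 2 of the L1CAM-shRNA slice group gave the lowest ASPM value of all libraries, and without it the log2 fold change of ASPM was −2.19. KIF11, the motor that pushes the poles apart, had the largest p in the group in control cells. Its libraries were at 2544 and 2500.2 normalised counts in the dish and 1203 and 1167 on the slice and at 3195 and 3066 normalised counts in the dish and 1396 and 955 on the slice. Dish and slice did not overlap, and the changes were −1.09 ± 0.18 (SE, adjusted p = 0.00808) and −1.44 ± 0.18 (SE, adjusted p = 0.00265).

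Of the midzone and cytokinesis genes 6 of 8 fell in control cells and 8 of 8 with L1CAM shRNA. KIF4A, a chromosome-bound kinesin that sets the length of the midzone, was at 1009 and 955 normalised counts in the dish and 415 and 427 on the slice, and at 622 and 571 normalised counts in the dish and 279 and 284 on the slice with L1CAM shRNA. KIF23, the motor of centralspindlin, was at 3408 and 3117 normalised counts in the dish and 1489 and 1410.2 on the slice in control and 3502 and 3451 normalised counts in the dish and 1595 and 1361 on the slice in L1CAM-shRNA cells. Both genes were lower in every slice library. KIF4A changed by −1.22 ± 0.14 (SE, adjusted p = 0.00283) and −1.08 ± 0.14 (SE, adjusted p = 0.0029), and KIF23 by −1.17 ± 0.14 (SE, adjusted p = 0.00324) and −1.24 ± 0.14 (SE, adjusted p = 0.00187). KIF14, a kinesin of the midbody, had the largest p. It was at 1113 and 1046 normalised counts in the dish and 595 and 545 on the slice in control cells, without overlap, and at 1408 and 1396 normalised counts in the dish and 663 and 224 on the slice with L1CAM shRNA. Its 2 L1CAM-shRNA slice libraries differed more than those of any other member. The difference was −0.92 ± 0.40 (SE, adjusted p = 0.149) and the change with L1CAM shRNA −1.86 ± 0.40 (SE, adjusted p = 0.0144), or −1.08 without replicate 2 of that slice group. ECT2, the exchange factor that sets the cleavage furrow, was the other gene that missed the threshold in control cells, at −0.70 ± 0.23 (SE, adjusted p = 0.0708).

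All 7 genes of condensin, topoisomerase and the chromosome surface fell with each shRNA. MKI67, which coats mitotic chromosomes and encodes the proliferation antigen Ki-67, was at 7384 and 7040.4 normalised counts in the dish and 1718 and 1753 on the slice. In L1CAM-shRNA cells MKI67 was at 6533 and 8183 normalised counts in the dish and 1923 and 1189.8 on the slice. NCAPG, a subunit of condensin I, was at 1926 and 1767 normalised counts in the dish and 864 and 817 on the slice and, with L1CAM shRNA, at 1883 and 1990.1 normalised counts in the dish and 866 and 826 on the slice. Dish and slice libraries did not overlap in either gene. MKI67 changed by −2.05 ± 0.22 (SE, adjusted p = 0.00247) and −2.27 ± 0.22 (SE, adjusted p = 0.00133), the former the largest fall in control cells among the 50, and NCAPG by −1.13 ± 0.13 (SE, adjusted p = 0.00316) and −1.19 ± 0.13 (SE, adjusted p = 0.00183). SMC4, an ATPase subunit of condensin, was at 4131 and 3878 normalised counts in the dish and 2161 and 2053 on the slice in control cells, and at 4845 and 4748 normalised counts in the dish and 2189 and 1248 on the slice with L1CAM shRNA. It also had no overlap, with changes of −0.93 ± 0.23 (SE, adjusted p = 0.0309) and −1.54 ± 0.23 (SE, adjusted p = 0.00414). TOP2A, which untangles sister DNA, stood at 3031 normalised counts per kilobase in the control dish libraries and changed by −1.58 ± 0.23 (SE, adjusted p = 0.00571) and −2.10 ± 0.23 (SE, adjusted p = 0.00168), the latter −2.49 without replicate 1 and −1.71 without replicate 2 of the slice group.

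**Figure D3:**
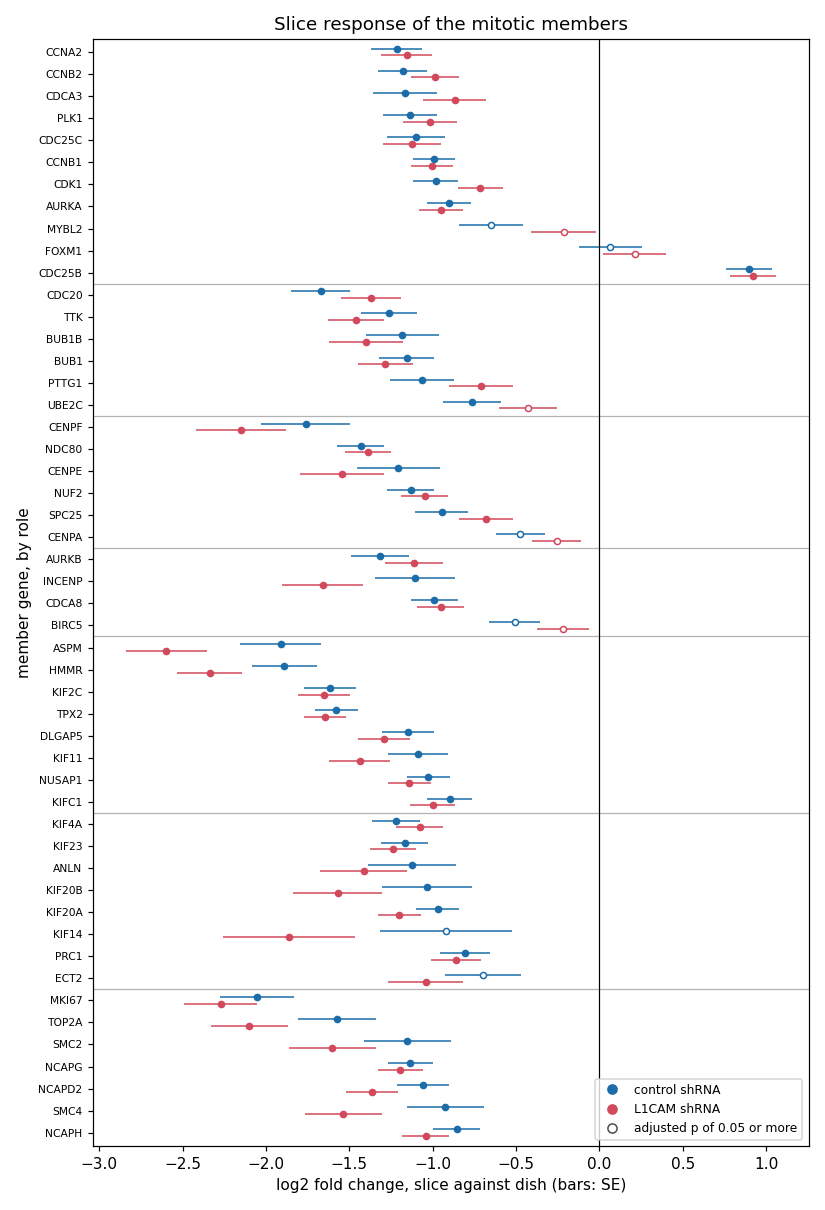
Log2 fold change of slice against dish for each member, with its standard error, in control (blue) and L1CAM-shRNA cells (red); open circles did not pass an adjusted p of 0.05. Points lie left of 0 for 48 of 50 members with each shRNA, and CDC25B lies right of it at 0.90 and 0.92.

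Another 104 mitotic genes, all of them tested, show how far the fall reached. In control cells 40 fell and 1 rose, with a median log2 fold change of −0.51, and in L1CAM-shRNA cells 46 fell and 4 rose, with a median of −0.55. For these and for each list below the shares over all genes are 8.03% lower and 6.8% higher in control cells, and 11.2% and 10.1% in L1CAM-shRNA cells. Leaving out a library moved these counts widely: 0 to 1 fell in control cells without any 1 of the 4 control libraries (0.0307% to 0.53% of all genes), 27 without either L1CAM-shRNA dish library (4.81% and 4.78%) and 68 without either L1CAM-shRNA slice library (23%). In L1CAM-shRNA cells 7 and 9 fell without 1 or the other L1CAM-shRNA dish library (1.45% and 2.81%).

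Of other spindle, motor and cytokinesis genes 12 of 17 fell in control cells and 11 with L1CAM shRNA. TUBA1B, an alpha tubulin, changed by −0.91 ± 0.16 (SE, adjusted p = 0.00987) and −0.63 ± 0.16 (SE, adjusted p = 0.0256), and KIF18A, a motor that aligns chromosomes, by −0.88 ± 0.17 (SE, adjusted p = 0.0142) and −1.17 ± 0.17 (SE, adjusted p = 0.00391). Of other kinetochore and checkpoint genes 11 of 26 fell in control cells and 13 with L1CAM shRNA. Those with the smallest p were CENPW, a histone-fold protein of the centromere (−1.36 ± 0.19, adjusted p = 0.00484 and −0.86 ± 0.19, adjusted p = 0.016), and KNTC1, which brings dynein to the kinetochore (−1.40 ± 0.20, adjusted p = 0.00566 and −1.94 ± 0.20, adjusted p = 0.00141). Other mitotic kinases and entry regulators fell in 9 of 15 cases in control cells and 10 with L1CAM shRNA, led by the kinases NEK2 (−1.27 ± 0.14, adjusted p = 0.00253 and −1.35 ± 0.14, adjusted p = 0.00152) and PBK (−0.99 ± 0.14, adjusted p = 0.00566 and −1.04 ± 0.14, adjusted p = 0.00329). In that list ENSA, whose phosphorylated product inhibits the phosphatase PP2A, rose with L1CAM shRNA (0.56 ± 0.16, adjusted p = 0.0377) and was at 0.32 ± 0.16 (SE, adjusted p = 0.206) in control cells. Condensin II had 2 of 3 genes lower with each shRNA, NCAPD3 (−1.13 ± 0.17, adjusted p = 0.00611 and −1.33 ± 0.17, adjusted p = 0.00279) and NCAPG2 (−1.04 ± 0.19, adjusted p = 0.0117 and −1.12 ± 0.19, adjusted p = 0.00641). Of cohesin and its regulators 5 of 14 fell in control cells and 7 with L1CAM shRNA. SGOL2 (shugoshin 2), a protector of centromeric cohesin, changed by −1.34 ± 0.18 (SE, adjusted p = 0.00443) and −1.66 ± 0.18 (SE, adjusted p = 0.00166), and ESPL1 (separase), the protease that cuts it, by −0.99 ± 0.17 (SE, adjusted p = 0.00887) and −1.11 ± 0.17 (SE, adjusted p = 0.00429).

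The counts for the anaphase-promoting complex with its regulators and for the MuvB and pocket protein complexes lay near the shares over all genes. Of the 17 genes of the former 1 fell in control cells, with a list median of −0.13, and 2 fell and 1 rose with L1CAM shRNA. The lowest log2 fold change of that list was −0.63 in control and −0.98 in L1CAM-shRNA cells. The subunit ANAPC10 changed by −0.59 ± 0.15 (SE, adjusted p = 0.0354) and −0.62 ± 0.15 (SE, adjusted p = 0.0232), and the second by p, the E2 enzyme UBE2S, was at −0.63 ± 0.21 (SE, adjusted p = 0.0738) and −0.22 ± 0.21 (SE, adjusted p = 0.463). ANAPC5 rose in L1CAM-shRNA cells (0.46 ± 0.13, adjusted p = 0.041) and was at 0.31 ± 0.13 (SE, adjusted p = 0.152) in control cells. Of the 12 MuvB and pocket protein genes 0 fell and 1 rose in control cells, with a list median of 0.24, and 1 fell and 2 rose with L1CAM shRNA. E2F5, a repressor E2F, rose by 0.67 ± 0.14 (SE, adjusted p = 0.0184) and 0.51 ± 0.14 (SE, adjusted p = 0.0355). RBL1 (p107) was at −1.01 ± 0.32 (SE, adjusted p = 0.0655) in control cells and changed by −1.47 ± 0.32 (SE, adjusted p = 0.0156) with L1CAM shRNA. RBL2 (p130), the pocket protein of resting cells, was at 0.70 ± 0.25 (SE, adjusted p = 0.0909) and 0.21 ± 0.25 (SE, adjusted p = 0.571), and E2F4, its usual partner, at 0.28 ± 0.16 (SE, adjusted p = 0.267) and 0.61 ± 0.16 (SE, adjusted p = 0.0293). Of these lists' genes with a window, 29.4% held the CHR letters for the anaphase-promoting complex and its regulators (5 of 17). For the MuvB and pocket proteins 50% did (5 of 10).

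**Figure D4:**
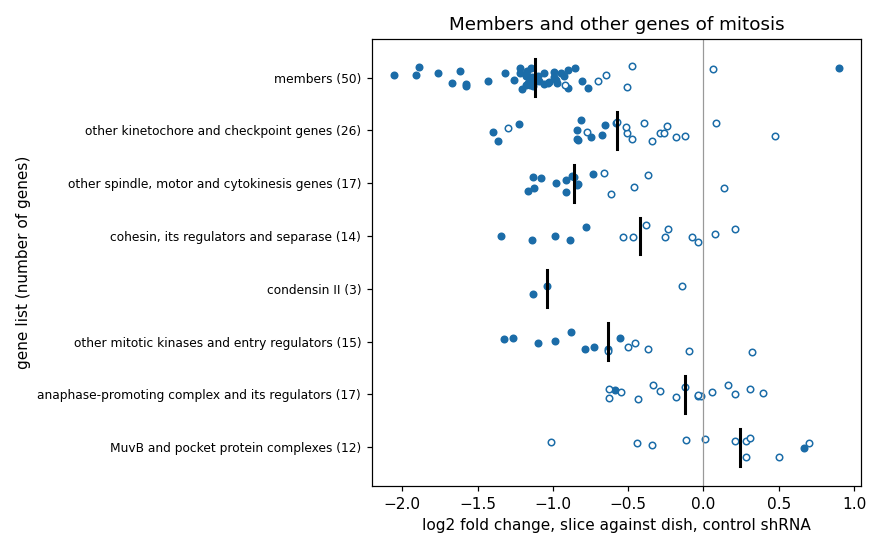
Log2 fold change of slice against dish in control cells for the 50 members and 7 lists of other mitotic genes, 1 point per gene, filled where the adjusted p was below 0.05, with a bar at each list's median. The medians run from −1.12 for the members to −0.13 for the anaphase-promoting complex with its regulators and 0.24 for the MuvB and pocket proteins.

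The 2 slice comparisons were then set against each other by the interaction of shRNA and culture, which asks whether the slice response differed with L1CAM shRNA. No member passed (0 of 50, and 0 of all genes), nor did any reach an unadjusted p of 0.05, where 1.25% of all genes did; edgeR and DESeq2 likewise gave 0 members adjusted and 0 unadjusted. The smallest p values belonged to ASPM (−0.69 ± 0.34, adjusted p = 0.97), SMC4 (−0.61 ± 0.33, adjusted p = 0.97) and KIF14 (−0.94 ± 0.56, adjusted p = 0.97), all 3 among the long transcripts. The 10 longest members had a median interaction of −0.49 on the log2 scale and the 10 shortest 0.24. Without replicate 2 of the L1CAM-shRNA slice group these medians were −0.09 and 0.06, and without replicate 1 they were −0.92 and 0.29, with 17 members then called lower and 7 higher, where 18% and 13.8% of all genes were. The 2 slice libraries thus gave different answers to this question, along transcript length.

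L1CAM shRNA against control shRNA gave no member past the threshold, in the dish or on the slice. In the dish 46 of the 50 log2 fold changes were above 0, as were 51.3% over all genes, with a member median of 0.20 beside 0.01 over all genes. Both L1CAM-shRNA libraries were above both control libraries for 32 members (25.7% of all genes) and below for 3 (25.6%). An unadjusted p under 0.05 was reached by 7 members, 6 higher and 1 lower (9.35% of all genes). Adjusted calls were 0 by limma (0.307% of all genes) and by edgeR. DESeq2 called 1, KIF4A, which was lower, where it called 0.938% of all genes lower and 0.469% higher. KIF4A was at 1009 and 955 normalised counts in the dish with control shRNA and at 622 and 571 normalised counts with L1CAM shRNA, without overlap. Its log2 fold change was −0.72 ± 0.14 (SE, adjusted p = 0.086). Next by p came KIF20A, a kinesin that moves the passenger complex to the midzone (0.37 ± 0.13, adjusted p = 0.376), and AURKB (0.46 ± 0.17, adjusted p = 0.424). KIF20A was at 2333 and 2225 normalised counts with control shRNA and at 2955 and 2953 normalised counts with L1CAM shRNA, again without overlap. Without either 1 of the L1CAM-shRNA slice libraries, which enter only through the pooled spread, 11 members passed in this dish comparison. Of those, KIF4A and ANLN were lower and 9 were higher, among them AURKB, KIF20A and TOP2A. Of all genes 6.53% and 6.56% were then lower and 4.51% and 4.49% higher.

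On the slice 30 of the 50 were above 0 (49.8% over all genes), with a median of 0.07. Without overlap 24 were higher (26%) and 3 lower (24.1%), and 12 had an unadjusted p under 0.05, 10 of them higher (18.3% of all genes). None passed by limma (0.646% of all genes did) or edgeR. DESeq2 called 1, AURKB, which was higher, where it called 0.93% of all genes higher and 1.68% lower. KIF4A again had the smallest p. It was at 415 and 427 normalised counts on the slice with control shRNA and at 279 and 284 normalised counts with L1CAM shRNA, lower in both libraries as in the dish. The log2 fold change was −0.58 ± 0.14 (SE, adjusted p = 0.131), followed by AURKB (0.67 ± 0.17, adjusted p = 0.141) and BIRC5 (0.57 ± 0.15, adjusted p = 0.155). The slice values for AURKB were 562 and 589.5 normalised counts with control and 783 and 1066 normalised counts with L1CAM shRNA, and AURKB is among the transcripts that were higher in replicate 2. Without replicate 1 of the L1CAM-shRNA slice group 30 members passed, 16 lower and 14 higher, near the shares over all genes of 27.8% and 25.2%. Without replicate 2 there were 3: KIF4A, lower (3.16% of all genes), and AURKB and TOP2A, higher (1.51%). The 2 dish-to-slice comparisons have no library in common, nor do the 2 shRNA comparisons, but each of the former shares a group with each of the latter, and all rest on the same pooled spread.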

How the data were processed

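TRAP mRNA from 8 libraries, 4 groups of 2, was analysed from 1 deposited table of 23368 genes. Per the submitters' processing notes FastQC 0.11.3, HTSeq 0.5.4 and DESeq2 were used with build hg19 (GRCh37); for the aligner and the gene models, nothing was given in the sources used here. The values the authors deposited are a normalized signal: reads per gene, scaled in each library by a single size factor. In each library 100% of values were whole multiples of its smallest value (tolerance 1e-06), so read numbers could be recovered (13486212 to 16734651 per library).

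The main test was limma 3.58.1 (R 4.3.3) on log2(normalized count + 1), with 4 group means, a mean-dependent prior and Benjamini-Hochberg adjustment within each of 5 contrasts over the 13010 genes with a mean of at least 10; fold changes are on that scale and slightly understate those of low genes. The threshold was an adjusted p of 0.05. The procedure was tested on simulated data. Where libraries are not separate cultures, p-values measure only the spread between these libraries. On the recovered reads edgeR 4.0.16 called 1134 genes lower and 856 higher for slice against dish in control cells, and 1464 and 1427 in L1CAM-shRNA cells. DESeq2 1.42.0 was also run. Other alternatives were the pseudocount, the low-value filter, TMM scaling, the replicate number as a block, only the 4 libraries compared, library weights, removal of a transcript length trend (loess, span 0.5) and each library left out. Exonic lengths came from the GENCODE basic annotation of GRCh38 and matched 12470 of the tested genes (95.8%) and 50 of 50 members; no coordinates were taken from it.

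The members, the lists of other mitotic genes and the naming rule were chosen with earlier results of these data known. In each role group the 2 members with the smallest and the 1 with the largest p for slice against dish in control cells are given in every library. So are the 3 with the smallest p in the other contrasts, except KIF20A, which is given only in its dish libraries. In each list of other genes the 2 with the smallest p are named, with any that passed in the opposite direction. CCNB1, CDC25C, PTTG1, CENPE, CENPF, INCENP, ECT2, TOP2A, RBL2, E2F4 and MYBL2 were added after their values were seen. Symbols are those of the table. A single marker gene is not reported here.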

Additional observations from a re-analysis of the deposited data

How the results depend on the processing

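For slice against dish, 43 members were called lower in control cells and 44 in L1CAM-shRNA cells. Over the settings other than leaving out a library, the named log2 fold changes of members all kept their sign: 1147 values stayed on the same side of the threshold, 35 passed it and 17 no longer did. Leaving out 1 library gave 1 to 48 members lower in control cells and 26 to 47 in L1CAM-shRNA cells (26 and 30 without 1 or the other L1CAM-shRNA dish library), and 197 single values lost their call. It gave 0 to 11 members past the threshold for L1CAM against control shRNA in the dish, 0 to 30 on the slice and 0 to 24 for the interaction. For the other mitotic genes it gave 0 to 68 lower in control cells and 7 to 66 in L1CAM-shRNA cells. The share of all genes called also moved widely when a library was left out, as given above for several of these fits. These ranges therefore describe the settings and not the mitotic genes alone. With a library left out FOXM1 changed sign with each shRNA (−0.0386 to 0.17 and −0.0515 to 0.48). So did MYBL2 in L1CAM-shRNA cells (−0.47 to 0.0399). For these 2 genes the cause was not tested. Only the 4 libraries compared gave 5 members for L1CAM against control shRNA in the dish, where 4.04% of all genes were lower and 2.29% higher. This setting called 72 and 16 other mitotic genes lower in control and L1CAM-shRNA cells (25.6% and 2.44% of all genes), where 40 and 46 were called. Library weights gave 7 members in the dish (4.73% of all genes lower and 3.04% higher). They gave 72 and 30 other mitotic genes lower in control and L1CAM-shRNA cells (26.4% and 4.65% of all genes). The cause was not tested. DESeq2 gave 1 member for each shRNA comparison, where limma gave 0. These were KIF4A, lower in the dish (0.938% of all genes), and AURKB, higher on the slice (0.93%). Removal of the length trend gave 1 in the dish, KIF4A, which was lower (1.15% of all genes).

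With the replicate number as a block 44 members were lower in control and 44 in L1CAM-shRNA cells (7.45% and 11.3% of all genes). The numbers did not pair the libraries: the correlation of replicate differences between groups lay between −0.38 and 0.19. The lowest was between the 2 dish groups, and there the crossed numbers as a block, an alternative chosen after seeing the data, gave 23 members past the threshold, 20 higher and 3 lower, where 10.9% and 12% of all genes were. Depth limits none of the members, whose values were at least 214 normalized counts.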
